A study of Saccharomyces cerevisiae with 8 samples.

Results

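The citric acid cycle and the complexes of oxidative phosphorylation of budding yeast, Saccharomyces cerevisiae, are described here through 49 of their nuclear genes, out of 5449 yeast genes measured. The genes were taken from a given list: 13 enzymes of the cycle and its side branches, 4 dehydrogenases that feed electrons into the chain, all 4 classical subunits of complex II, 9 of complex III, 7 of complex IV and 12 of complex V. Each gene was read from 1 probe set, and none of these probe sets is marked as shared between transcripts. Of the 49 genes, 47 lay above the background of their array on all 8 arrays, where the background is the 95th percentile of the fission yeast probe sets that the same array carries. The other 2, CIT3 and NDE2, did so on none.

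The citric acid cycle oxidises acetyl units in the mitochondrial matrix and passes electrons to NADH and, through complex II, to ubiquinone. Yeast has no proton-pumping complex I; single-subunit NADH dehydrogenases take its place, complexes III and IV carry the electrons on through cytochrome c to oxygen, and complex V makes ATP from the resulting proton gradient. Several of these proteins hold iron as iron-sulfur clusters or heme. When iron is scarce, yeast switches on iron uptake genes under the transcription factor Aft1, among them TIS11 (also called CTH2), whose product binds and destabilises transcripts of iron-using proteins.

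RNA came from 4 cultures with the empty vector pRSGPD426, the vector control, and from 4 with pRS416TEF-Kir2.1-HA, a plasmid for the mammalian inwardly rectifying potassium channel Kir2.1, so that plasmid and channel differ together. Growth was at 26 °C in selective medium, up to mid log phase, and the series describes its replicates as biological. The control arrays alone are marked as a re-analysis in the labels, which cannot be told apart from the group. The host strain's genotype is not given in the sources used here, and Kir2.1 itself was not analysed here. In bulk RNA, less transcript per cell and fewer cells that hold it cannot be told apart.

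Levels below are on a log2 scale, with the array's own median gene at 0, and a difference of 1 is 2-fold; they were calculated from standardized scores that the authors deposited. Group differences are Kir2.1 minus vector control. Levels of different genes come from different probes and are not set against each other. An iron uptake index, the mean log2 level of 11 genes for iron capture and uptake (FIT1, FIT2, FIT3, ARN1, ARN2, SIT1, ENB1, FET3, FTR1, FRE2 and FRE3), stood at 2.0, -0.20, -0.69 and -0.31 on the 4 control arrays and at 2.37, -0.38, 2.50 and -0.83 on the 4 Kir2.1 arrays. Values in such lists are always in the order of replicates 1 to 4. A set of 3 arrays, Kir2.1 replicates 1 and 3 with replicate 1 of the controls, thus lies between 2.0 and 2.50 and is called the high-index arrays below, and the other 5 lie between -0.83 and -0.20. This split comes from measured values, not from a label. Since the index falls into separate clusters of fewer than 6 arrays, no correlation with it was computed, and the values are given array by array, with no test. As a covariate, the index entered an alternative fit of the group difference, given further below.

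The main pattern was one of complexes. On the 3 high-index arrays, all 4 genes of complex II, all 9 of complex III and 6 of 7 of complex IV lay below the other 5 arrays, together 19 of 20 genes (95%). In complex V the same held for 5 of 12 genes, in the citric acid cycle for 2 of 13 (ACO1 and KGD1), and among the dehydrogenases for none of 4. Over all members these are 26 of 49 genes (53.1%), against a background of 18.4% of all 5449 genes. In the opposite direction, 2 members lay above the other 5 arrays, both within the background of the array, against a background of 16.7%. The 26 became 21 without centring the arrays and 25 after quantile normalization, and complex II kept 4 of 4 genes in all 5 rescalings tried.

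**Figure D1:**
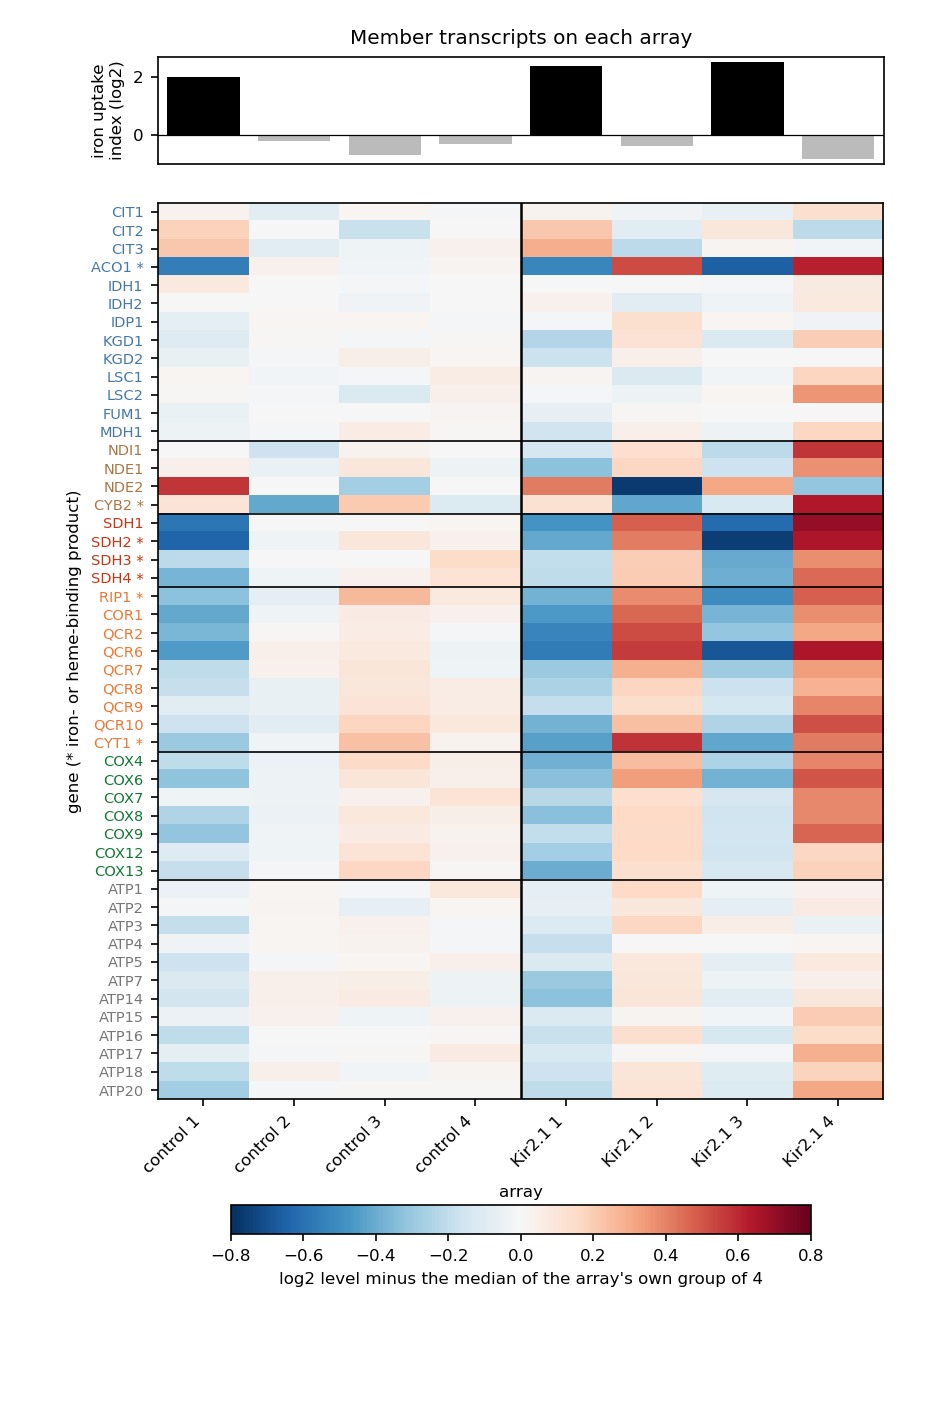
Each row is a member gene, grouped from top to bottom as citric acid cycle, dehydrogenases and complexes II, III, IV and V, and each column an array; colour gives the log2 level minus the median of the array's own group of 4, and bars above give the iron uptake index. Complexes II, III and IV are blue on vector control 1 and Kir2.1 1 and 3, whose index is 2.0 to 2.50, whereas the cycle genes other than ACO1 are mostly pale.

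In the citric acid cycle, ACO1 stood apart from the other enzymes. ACO1 (YLR304C), aconitase, which holds an iron-sulfur cluster at its active site, stood at 2.48, 3.06, 3.01 and 3.05 on the 4 control arrays and at 2.13, 3.18, 2.0 and 3.28 on the 4 Kir2.1 arrays. Vector control replicate 1 was at 0.673 of the median of the other controls on the linear scale, Kir2.1 replicate 3 was at 0.413 of replicate 4, and the lowest of the 5 arrays with a low index exceeded the highest of the other 3 by 0.53. The labelled groups overlapped, with 2.90 ± 0.28 (SD, n = 4) in the controls and 2.65 ± 0.67 (SD, n = 4) in the Kir2.1 arrays. The difference was -0.25 (SE 0.31, limma adjusted p = 0.797).

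The enzymes on either side of aconitase did not follow it. CIT1 (YNR001C), the mitochondrial citrate synthase, stood at 2.87, 2.76, 2.86 and 2.83 on the 4 control arrays and at 3.07, 3.01, 2.98 and 3.16 on the 4 Kir2.1 arrays. IDH1 (YNL037C) and IDH2 (YOR136W) encode the subunits of the NAD-dependent isocitrate dehydrogenase. IDH1 stood at 2.17, 2.09, 2.09 and 2.1 on the 4 control arrays and at 2.27, 2.26, 2.26 and 2.33 on the 4 Kir2.1 arrays. IDH2 stood at 2.76, 2.75, 2.73 and 2.76 on the 4 control arrays and at 2.99, 2.86, 2.91 and 3.03 on the 4 Kir2.1 arrays. For all of these genes, every Kir2.1 array lay above every control array, and vector control replicate 1 lay within 0.08 of the median of the other controls. The group difference was 0.22 (SE 0.06) for CIT1, 0.17 (SE 0.05) for IDH1 and 0.20 (SE 0.06) for IDH2, each at a limma adjusted p of 0.551. After quantile normalization the differences were 0.13, 0.09 and 0.10, and without centring 0.09, 0.04 and 0.07; under neither rescaling were the groups apart in any of these genes.

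CIT2 (YCR005C), the peroxisomal citrate synthase and a marker gene of the retrograde signal from mitochondria to nucleus, ran the other way from aconitase. It stood at 3.58, 3.40, 3.22 and 3.40 on the 4 control arrays and at 3.94, 3.64, 3.81 and 3.52 on the 4 Kir2.1 arrays. The high-index arrays held the highest value of the controls and the 2 highest values of the Kir2.1 group, yet vector control replicate 1 lay below Kir2.1 replicate 2, so the 3 arrays did not separate from the other 5. Its group difference was 0.33 (SE 0.11, limma adjusted p = 0.551), and 0.21 after quantile normalization. CIT3 (YPR001W), the minor mitochondrial citrate synthase, lay within the background throughout, so its values are bounds and no difference is read from it.

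Of the remaining enzymes of the cycle, KGD1 (YIL125W), the E1 subunit of 2-oxoglutarate dehydrogenase, was the other one that stood low on all 3 high-index arrays. It stood at 1.43, 1.54, 1.53 and 1.54 on the 4 control arrays and at 1.19, 1.55, 1.32 and 1.62 on the 4 Kir2.1 arrays, a gap of 0.09 between the sets. KGD2 (YDR148C), the E2 subunit of the same enzyme, varied over 0.21 in all and did not separate the arrays. IDP1 (YDL066W), the mitochondrial NADP-dependent isocitrate dehydrogenase, and FUM1 (YPL262W), fumarase, had every Kir2.1 value above every control value. Their differences were 0.15 (SE 0.06, limma adjusted p = 0.568) and 0.12 (SE 0.05, limma adjusted p = 0.594), but 0.03 and 0.02 after quantile normalization, and FUM1 turned to -0.014 without centring. FUM1 had the narrowest range of all 49 members, 0.18 over the 8 arrays. LSC1 (YOR142W), the alpha subunit of succinyl-CoA ligase, differed by 0.14 (SE 0.07), and LSC2, its beta subunit, had its highest value, 1.84, on Kir2.1 replicate 4. MDH1, the mitochondrial malate dehydrogenase, ranged from 2.46 to 2.79.

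The dehydrogenases at the entry of the chain showed no common order. NDI1 (YML120C), the NADH dehydrogenase on the matrix side, stood at 0.96, 0.79, 0.99 and 0.96 on the 4 control arrays and at 0.65, 0.93, 0.58 and 1.36 on the 4 Kir2.1 arrays. NDE1 (YMR145C), on the outer side of the inner membrane, stood at 2.74, 2.64, 2.79 and 2.66 on the 4 control arrays and at 2.41, 2.90, 2.57 and 3.10 on the 4 Kir2.1 arrays. In both, Kir2.1 replicates 1 and 3 were the lowest and replicate 4 the highest of the 8 arrays, but vector control replicate 1 lay among the other controls. CYB2 (YML054C), cytochrome b2, is a lactate dehydrogenase of the intermembrane space that holds heme and flavin. It stood at -0.72, -1.24, -0.63 and -0.95 on the 4 control arrays and at -0.71, -1.25, -0.95 and -0.19 on the 4 Kir2.1 arrays. CYB2 was thus the single iron- or heme-binding member that did not stand low on the high-index arrays; the replicates numbered 2 of both groups were lowest and Kir2.1 replicate 4 was highest. Its group difference was 0.11 (SE 0.23, limma adjusted p = 0.866). NDE2, a second external NADH dehydrogenase, lay within the background on every array and had its 3 highest values, -2.25, -1.89 and -1.99, on the high-index arrays. Its difference of 0.35 (SE 0.28, limma adjusted p = 0.716) is not interpreted for that reason.

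Complex II, succinate dehydrogenase, links the cycle to the chain, and its genes had the widest median range of the classes, 1.08 over the 8 arrays, or 2.11-fold. SDH1 (YKL148C), the flavoprotein subunit, stood at 1.76, 2.34, 2.34 and 2.36 on the 4 control arrays and at 1.48, 2.44, 1.34 and 2.66 on the 4 Kir2.1 arrays. SDH2 (YLL041C), the subunit with the iron-sulfur clusters, stood at 1.79, 2.40, 2.52 and 2.47 on the 4 control arrays and at 1.80, 2.62, 1.46 and 2.85 on the 4 Kir2.1 arrays. Both genes showed the 3 high-index arrays well below the rest, by 0.57 and 0.60 from the nearest of the other 5, and SDH2 had the widest range of all members, 1.40 or 2.64-fold. Vector control replicate 1 was at 0.669 and 0.627 of the median of the other controls.

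The membrane anchor subunits, which together hold heme b, varied less. SDH3 (YKL141W) stood at 1.91, 2.11, 2.12 and 2.26 on the 4 control arrays and at 1.84, 2.23, 1.63 and 2.40 on the 4 Kir2.1 arrays. SDH4 (YDR178W) stood at 2.23, 2.57, 2.64 and 2.72 on the 4 control arrays and at 2.35, 2.75, 2.16 and 3.01 on the 4 Kir2.1 arrays. The high-index arrays again lay below the other 5, with gaps of 0.21 and 0.22. The labelled groups overlapped in all 4 genes, and the differences were -0.22 (SE 0.31), -0.11 (SE 0.32), -0.08 (SE 0.17) and 0.03 (SE 0.19) from SDH1 to SDH4, with limma adjusted p from 0.825 to 0.962.

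**Figure D2:**
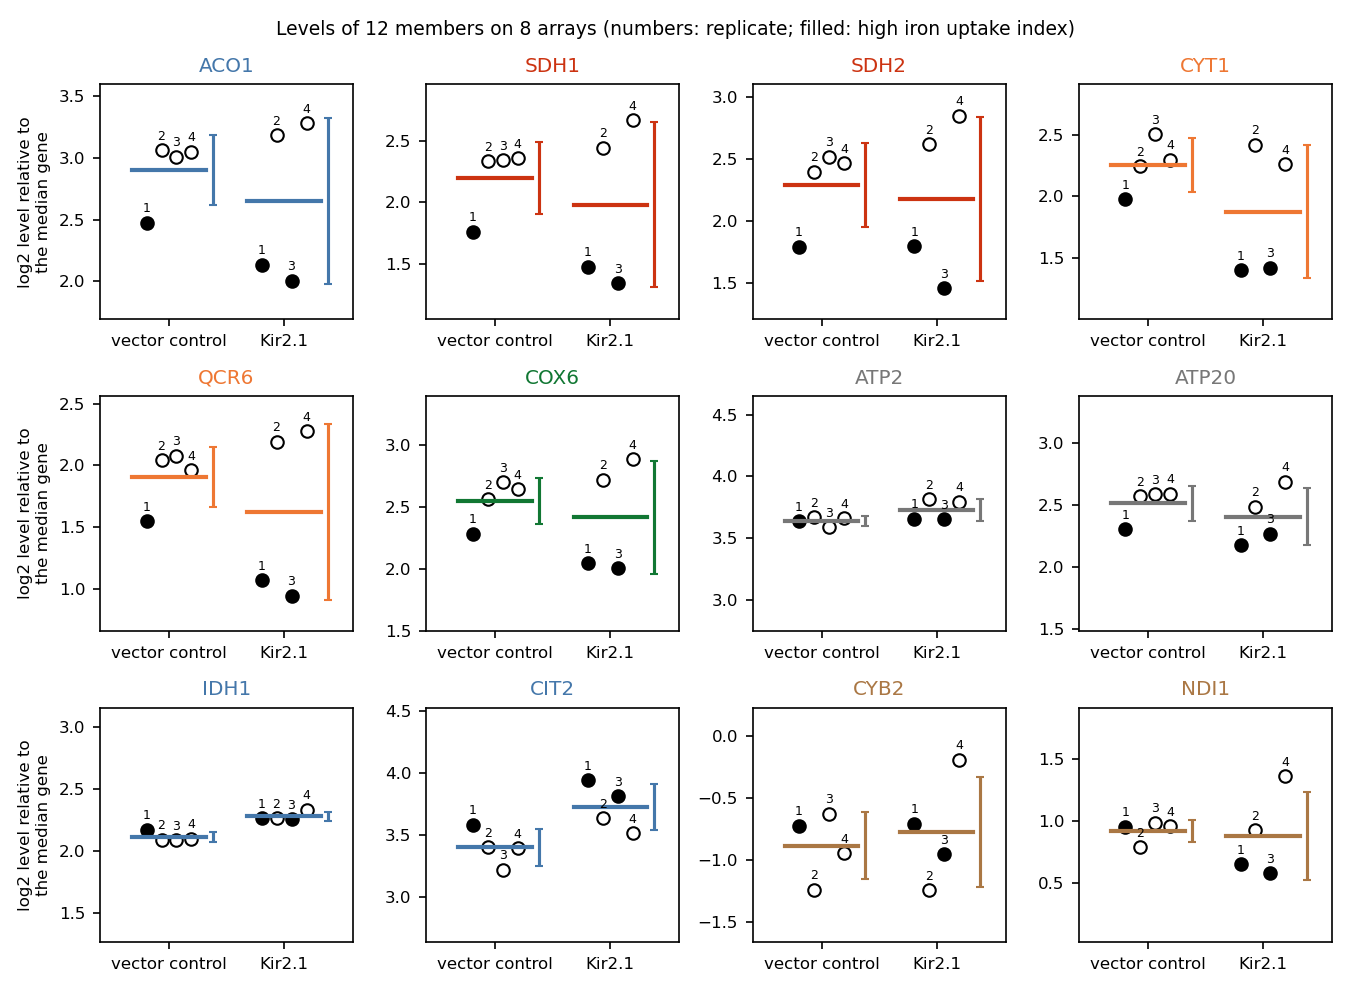
Log2 levels relative to the median gene on each array for 12 members; points are arrays numbered by replicate, filled on the 3 high-index arrays, lines are group means and error bars are standard deviations (n = 4), and every panel spans the same height. In ACO1, SDH1, SDH2, CYT1, QCR6, COX6 and ATP20 the filled points lie below the open ones in both groups, whereas ATP2 and IDH1 show no such gap.

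Complex III, ubiquinol-cytochrome c reductase, carried the pattern in each of its 9 genes. RIP1 (YEL024W), the Rieske iron-sulfur protein, stood at 2.12, 2.37, 2.71 and 2.53 on the 4 control arrays and at 2.01, 2.77, 1.89 and 2.87 on the 4 Kir2.1 arrays. CYT1 (YOR065W), cytochrome c1, stood at 1.98, 2.25, 2.51 and 2.30 on the 4 control arrays and at 1.41, 2.42, 1.42 and 2.26 on the 4 Kir2.1 arrays. Among the members that bind no iron, QCR6 (YFR033C), the acidic hinge subunit, stood at 1.55, 2.04, 2.08 and 1.96 on the 4 control arrays and at 1.07, 2.19, 0.94 and 2.28 on the 4 Kir2.1 arrays. The nearest arrays of the 2 sets were 0.25, 0.27 and 0.41 apart, so the gap of the hinge subunit was the widest of these. QCR6 also had the second widest range of all 49 members, 1.33.

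The core subunit genes COR1 (YBL045C) and QCR2 (YPR191W) behaved alike. COR1 stood at 2.43, 2.80, 2.91 and 2.88 on the 4 control arrays and at 2.09, 3.01, 2.18 and 2.92 on the 4 Kir2.1 arrays. QCR2 stood at 2.0, 2.38, 2.43 and 2.36 on the 4 control arrays and at 1.5, 2.55, 1.71 and 2.34 on the 4 Kir2.1 arrays. Kir2.1 replicates 1 and 3 were the lowest of the 8 arrays in both genes and vector control replicate 1 came next, 0.37 and 0.34 below the nearest of the other 5. The small subunits QCR7, QCR8, QCR9 and QCR10 had gaps of 0.17, 0.12, 0.03 and 0.08; after quantile normalization 8 of the 9 genes of the complex still separated the sets. QCR10 (YHR001W-A) ranged over 0.89. The group differences of complex III ran from -0.38 for CYT1 (SE 0.25, limma adjusted p = 0.707) to 0.03 for QCR9. They were -0.05 (SE 0.24) for RIP1, -0.28 (SE 0.32) for QCR6, -0.27 (SE 0.23) for QCR2, -0.21 (SE 0.23) for COR1 and -0.07 (SE 0.19) for QCR10, and in 8 of the 9 genes the Kir2.1 mean was the lower one, against 41.3% of all genes. On the 5 arrays with a low index it was the lower one in 1 of the 9, CYT1, against 42.5% of all genes. With the index as a covariate the difference was below 0 in 5 of the 9 (55.6%, against 41.4% of all genes).

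Complex IV, cytochrome c oxidase, was read through 7 nuclear subunits; the catalytic subunits with heme and copper are encoded in mitochondrial DNA and are not among the members. COX6 (YHR051W) stood at 2.28, 2.57, 2.70 and 2.65 on the 4 control arrays and at 2.05, 2.72, 2.01 and 2.89 on the 4 Kir2.1 arrays. COX4 (YGL187C), a zinc-binding subunit, stood at 2.68, 2.83, 3.04 and 2.93 on the 4 control arrays and at 2.48, 3.12, 2.62 and 3.26 on the 4 Kir2.1 arrays. The gap between the sets was 0.28 in COX6, 0.19 in COX8, 0.18 in COX13, 0.17 in COX9, 0.15 in COX4 and 0.07 in COX12. COX7 missed separation narrowly: vector control replicate 1 and replicate 2 both stood at 2.48. Group differences ran from -0.13 to 0.08, with a median of -0.09.

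Complex V, the ATP synthase, had a smaller median range than complexes II, III and IV, 0.35 (1.28-fold) against 0.40 over all genes. ATP1 (YBL099W), the alpha subunit of the catalytic head, stood at 3.77, 3.83, 3.80 and 3.90 on the 4 control arrays and at 3.84, 4.07, 3.88 and 3.94 on the 4 Kir2.1 arrays. ATP2 (YJR121W), the beta subunit, stood at 3.64, 3.67, 3.59 and 3.66 on the 4 control arrays and at 3.66, 3.81, 3.65 and 3.79 on the 4 Kir2.1 arrays. Neither separated the sets. Of the 5 genes of the head and its central stalk (ATP1, ATP2, ATP3, ATP15, ATP16), 1 lay below on all high-index arrays, ATP16 (YDL004W), the delta subunit, at a gap of 0.12. Of the 7 genes of the peripheral stalk and membrane part, 4 did: ATP20 (gap 0.18), ATP18 (0.12), ATP14 (0.10) and ATP7 (0.0096). ATP20 (YPR020W), subunit g of the membrane part, stood at 2.31, 2.57, 2.59 and 2.59 on the 4 control arrays and at 2.18, 2.49, 2.27 and 2.69 on the 4 Kir2.1 arrays. Within the groups the order was more uniform than these gaps show. Vector control replicate 1 was the lowest control in 11 of 12 genes, against 41.2% of all genes. Kir2.1 replicate 1 was the lowest Kir2.1 array in 11 of 12, against 17.1% of all genes. ATP5 (YDR298C), the subunit that joins the peripheral stalk to the head, had the largest group difference of the complex, 0.16 (SE 0.07, limma adjusted p = 0.617), and 0.04 after quantile normalization.

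**Figure D3:**
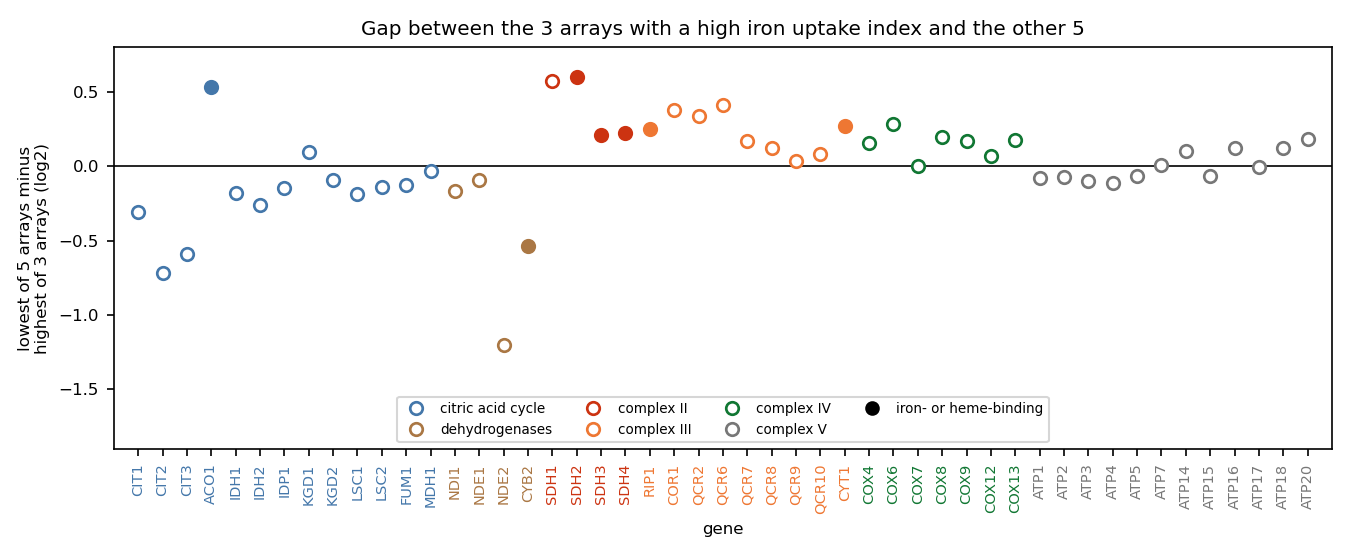
Lowest log2 level among the 5 arrays with a low iron uptake index minus the highest among the 3 with a high index, for each member; values above 0 mean that the 3 arrays lie below all others, colours mark the classes and filled points iron- or heme-binding products. Complexes II and III lie above 0 in all 13 genes, with filled and open points interleaved, while CYB2, a heme-binding member, lies at -0.54.

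Most iron- or heme-binding members and part of the other members stood low on the high-index arrays. Of the 7 members whose products bind iron or heme (ACO1, SDH2, SDH3, SDH4, RIP1, CYT1 and CYB2), 6 lay below on all 3 high-index arrays (85.7%). Of the other 42 members 20 did (47.6%), against 18.4% of all genes. The median range was 1.05 in the 7 and 0.46 in the 42. Within complexes II and III, however, all 5 iron- or heme-binding and all 8 other subunits lay below, with median ranges of 0.98 and 0.91. The flavoprotein gene SDH1 and the hinge gene QCR6, with ranges of 1.32 and 1.33, bind neither, and the heme anchor genes SDH3 and SDH4 ranged over 0.77 and 0.84. Among the 8 members with a range above 1, which makes 16.3% against a background of 6.13% of all genes, 4 bind iron or heme (SDH2, ACO1, CYT1 and CYB2), 3 do not (QCR6, SDH1 and QCR2), and the remaining one is NDE2, which lay within the background. Among the 47 members above background, 7 had such a range (14.9%).

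The arrays were also ordered within each labelled group. Vector control replicate 1 was the lowest of the 4 controls in 36 of 49 members (73.5%), against 41.2% of all genes. Kir2.1 replicate 1 or 3 was the lowest of its group in 41 of 49 members (83.7%), against 41.2% of all genes. Over complex II, the median deviation from the group's median was -0.47, -0.02, 0.02 and 0.07 on the 4 control arrays and -0.31, 0.31, -0.51 and 0.55 on the 4 Kir2.1 arrays. Over complex III it was -0.29, -0.04, 0.10 and 0.04 on the 4 control arrays and -0.38, 0.38, -0.31 and 0.39 on the 4 Kir2.1 arrays. The high-index arrays lay below the median of their group in both complexes. Over complex IV it was -0.20, -0.04, 0.10 and 0.04 on the 4 control arrays and -0.33, 0.16, -0.16 and 0.39 on the 4 Kir2.1 arrays. Over complex V it was -0.13, 0.02, 0.0091 and 0.01 on the 4 control arrays and -0.14, 0.09, -0.06 and 0.09 on the 4 Kir2.1 arrays. In both of these complexes too, the high-index arrays had the lowest medians of their group. For the 13 cycle genes the medians were 0.0036, -0.0036, -0.0075 and 0.0078 on the 4 control arrays and -0.02, -0.0015, -0.0072 and 0.08 on the 4 Kir2.1 arrays. Kir2.1 replicate 4 stood highest of its group in 34 members (69.4%, against 25.4% of all genes), including all 4 of complex II and all 7 of complex IV. It had the lowest iron uptake index of all 8 arrays, -0.83.

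The comparison of the labelled groups asks which yeast transcripts respond when a foreign potassium channel is made. For this set of genes it gave no call. Limma called 0 of 49 members in either direction at an adjusted p under 0.05, against a background of 0% of the 5449 genes as higher and 0% as lower, and the smallest adjusted p of a member was 0.551. At an unadjusted p under 0.05, 6 members were higher (CIT1, IDH2, IDH1, CIT2, IDP1 and FUM1; 12.2% against 6.37% of all genes) and 0 lower (against 1.98%). The unmoderated linear model also called 0 and gave 6 members and 524 of all genes at an unadjusted p under 0.05. In 5 members (10.2%), all of the cycle, the 4 Kir2.1 values lay above the 4 control values, against 5.05% of all genes, and in 0 members below, against 1.54%. These 5 became 0 after quantile normalization, where 87 of all 5449 genes were apart in this direction. They also became 0 without centring, where 10 of all genes were.

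The median difference was 0.0041 over the 49 members (-0.08 after quantile normalization) and 0.03 over all genes, and the Kir2.1 mean was the higher one in 26 members (53.1% against 58.7% of all genes). By class the median was 0.14 in the citric acid cycle, -0.09 in complex II, 0.08 in the dehydrogenases, -0.17 in complex III, -0.09 in complex IV and 0.05 in complex V, of which the last turned to -0.08 without centring and -0.05 after quantile normalization and that of the dehydrogenases to -0.05 without centring. It was -0.08 over the 7 iron- or heme-binding members and 0.03 over the other 42, which turned to -0.07 after quantile normalization. The negative medians turned positive with the 3 high-index arrays left out: 0.22 in complex II, 0.14 in complex III, 0.13 in complex IV and 0.22 over the iron- or heme-binding members. Leaving out Kir2.1 replicate 3 alone turned complex II to 0.09 and the iron- or heme-binding members to 0.12, and leaving out Kir2.1 replicate 1 alone turned complex IV to 0.02; the dehydrogenases turned to -0.08 without Kir2.1 replicate 4. Standard errors of members ran from 0.05 for FUM1 to 0.32 for QCR6. The 95% interval of 48 of 49 members lay within 2-fold in either direction, as did that of 97.4% of all genes; that of QCR6, -1.02 to 0.45, did not. With single arrays left out, the difference of ACO1 ran from -0.46 to -0.03, and no gene passed.

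**Figure D4:**
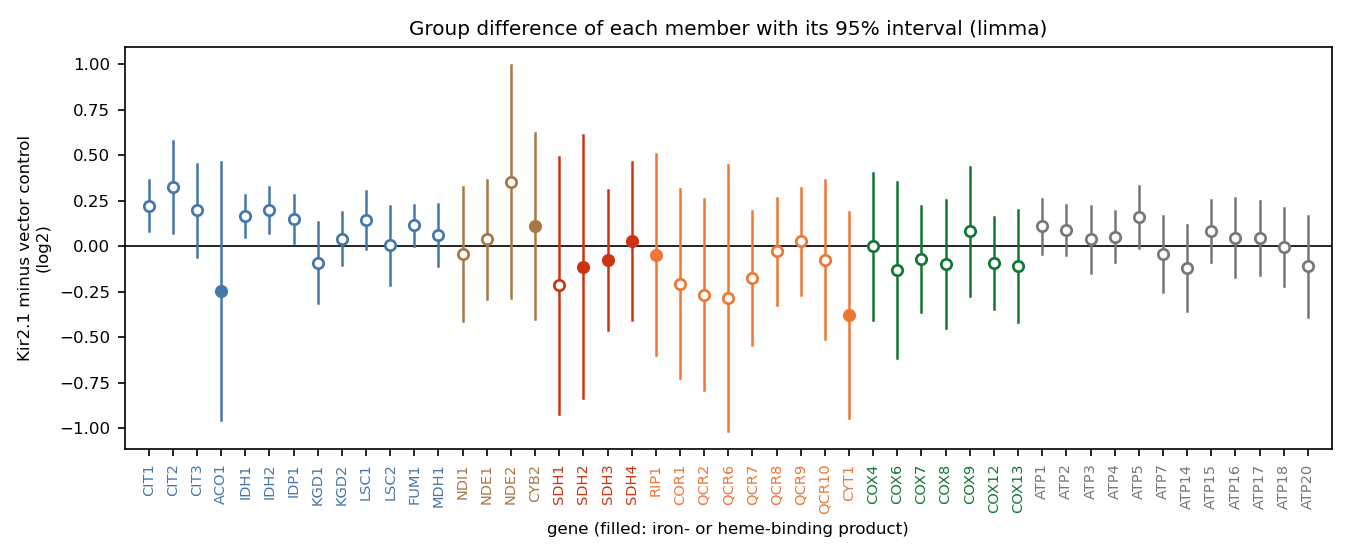
Group difference of each member, Kir2.1 minus vector control on the log2 scale, with its 95% interval from limma; colours mark the classes as in the plot of gaps and filled points iron- or heme-binding products. Intervals are narrow in the citric acid cycle other than ACO1 and in complex V, and widest in QCR6, SDH2, SDH1 and ACO1 and in NDE2, which lay within the background.

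The groups hold unequal numbers of high-index arrays, 1 of 4 controls and 2 of 4 Kir2.1 arrays. With the index as a covariate, the difference of ACO1 moved from -0.25 (SE 0.31) to -0.01 (SE 0.09), that of SDH1 from -0.22 to 0.02 (SE 0.08) and that of QCR6 from -0.28 to -0.04 (SE 0.10), while CIT1, IDH1 and IDH2 kept 0.23, 0.17 and 0.20. The median standard error went from 0.12 to 0.07 over the members and from 0.09 to 0.07 over all genes. No member passed (smallest limma adjusted p = 0.220), against 0 of all genes. In this fit the difference was above 0 in 38 of 49 members (77.6%, against 58.6% of all genes). Its median was 0.07, against 0.03 over all genes. Among the 5 arrays with a low index, the mean of the 2 Kir2.1 arrays exceeded that of the 3 controls in 47 of 49 members. This share was 95.9%, against 57.5% of all genes, with a median of 0.15 against 0.02 over all genes, and no gene passed. The counts depend on the scaling. After quantile normalization 35 of 49 members were higher there (71.4%, against 48.1% of all genes), and without centring 26 (53.1%, against 16.7%). With array weights, limma called 6 members higher (12.2%, against 18.7% of all genes) and 15 lower (30.6%, against 13.2%). That fit gave weights of 0.372, 0.231 and 0.267 to replicate 1 of the controls and to replicates 2 and 4 of the Kir2.1 group, so the low-index Kir2.1 arrays and the high-index control counted least.

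Genes around the members were read from 4 fixed lists, of which 94 of 95 genes were measured, and limma called 0 of these genes. Among 41 assembly factors of the complexes, 21 lay below on all high-index arrays (51.2%, against 18.4% of all genes) and 2 above. The Kir2.1 mean was the lower one in 34 of the 41 (82.9%, against 41.3% of all genes), where 2 of 4 Kir2.1 arrays and 1 of 4 controls have a high index; on the 5 arrays with a low index it was the lower one in 24 of the 41 (58.5%, against 42.5%). Among 24 further chain genes, 6 lay below and 3 above, among 18 regulators 2 below and 3 above, and among 11 isoenzyme, glyoxylate and gluconeogenic genes 1 below and 2 above.

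Cytochrome c, the carrier between complexes III and IV, had the widest gap among the genes described here that lay below on the high-index arrays. CYC1 (YJR048W), its main isoform, stood at 2.09, 3.27, 3.40 and 3.28 on the 4 control arrays and at 0.81, 3.43, 0.61 and 3.29 on the 4 Kir2.1 arrays. The high-index arrays lay at least 1.18 below the other 5. Its group difference was -0.98 (SE 0.70, limma adjusted p = 0.711), and 0.04 with the 3 high-index arrays left out. CYC7 (YEL039C), the minor isoform, stood at -0.63, -0.65, -0.37 and -0.38 on the 4 control arrays and at 0.23, -0.91, -0.77 and 0.97 on the 4 Kir2.1 arrays, with its 2 highest values on Kir2.1 replicates 4 and 1, and differed by 0.39 (SE 0.38). COX5A and COX5B encode alternative forms of 1 subunit of complex IV, used with ample and with scarce oxygen. COX5A followed the other subunits, with a gap of 0.16, while COX5B (YIL111W) stood at 0.85, 0.64, 0.52 and 0.76 on the 4 control arrays and at 1.29, 0.60, 1.15 and 1.19 on the 4 Kir2.1 arrays and differed by 0.36 (SE 0.15, limma adjusted p = 0.589). SHH3 (YMR118C), a paralog of SDH3, was highest on the 3 high-index arrays but lay within the background on all 8. GUT2 (YIL155C) and COQ4 (YDR204W), above the background on all 8 arrays, were also highest on these 3. GUT2 stood at 0.07, -0.58, -0.50 and -0.55 on the 4 control arrays and at -0.17, -0.82, 0.08 and -0.49 on the 4 Kir2.1 arrays. COQ4 ranged over 0.38. INH1, the inhibitor of the ATP synthase, followed the complexes with a gap of 0.38.

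Among the assembly factors, COX10 (YPL172C), which makes the heme O precursor of the oxidase, stood at -0.02, 0.66, 0.70 and 0.75 on the 4 control arrays and at -0.10, 0.75, -0.11 and 0.72 on the 4 Kir2.1 arrays. COX17 (YLL009C), the copper chaperone of the oxidase, stood at 0.72, 1.37, 1.38 and 1.39 on the 4 control arrays and at 0.21, 1.32, 0.35 and 1.32 on the 4 Kir2.1 arrays. In both, the 5 low-index arrays lay close together and the 3 high-index arrays lay below them, by 0.67 and 0.60 at the nearest. COX5A, INH1, GUT2, COQ4, COX10 and COX17 were chosen after their values were seen. CYT2 (YKL087C), the lyase that attaches heme to cytochrome c1, had a gap of 0.15 and a group difference of -0.56 (SE 0.24, limma adjusted p = 0.602). PET117 (YER058W), an assembly factor of the oxidase, had a gap of 0.66, and PET100, of the same complex, one of 0.12 with a difference of -0.35 (SE 0.15). SDH7 (YDR511W), an assembly factor of complex II, had a gap of 0.07 and a difference of -0.34 (SE 0.14), SCO1 (YBR037C), a copper carrier, differed by -0.28 (SE 0.11), and CBS2, a translational activator of cytochrome b, by -0.14 (SE 0.06). SDH6 and SDH8, assembly factors of complex II, ran the other way and lay above on all 3 high-index arrays.

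**Figure D5:**
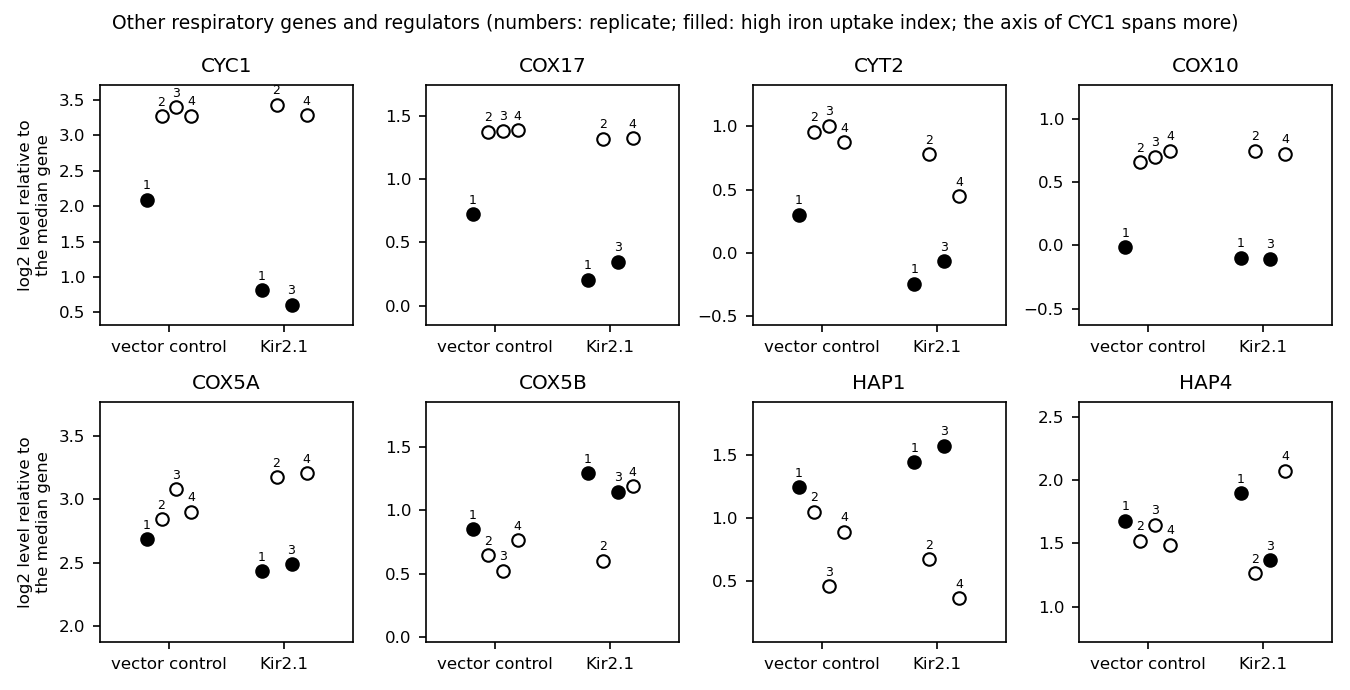
Log2 levels relative to the median gene for CYC1, COX17, CYT2, COX10, COX5A, COX5B, HAP1 and HAP4; points are arrays numbered by replicate and filled on the 3 high-index arrays, and the panel of CYC1 spans a greater height than the others. The filled points lie below the open ones in the first 5 genes and above them in HAP1, and they are mixed in COX5B and HAP4.

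Of the regulators, TIS11 (YLR136C) stood at 2.19, -0.69, -2.11 and -1.02 on the 4 control arrays and at 2.47, -1.76, 2.45 and -2.44 on the 4 Kir2.1 arrays, high on the 3 high-index arrays and low on the other 5. It differed by 0.59 (SE 1.36) between the groups and lay within the background on 3 arrays. CTH1 (YDR151C), its paralog, ranged over 0.21 and also lay above on all 3 high-index arrays, at 0.80 or more against at most 0.75. HAP1 (YLR256W), the heme-dependent activator of respiratory genes, was higher on the 3 high-index arrays: it stood at 1.24, 1.05, 0.46 and 0.89 on the 4 control arrays and at 1.44, 0.67, 1.57 and 0.36 on the 4 Kir2.1 arrays, and differed by 0.10 (SE 0.29). HAP4 (YKL109W), the regulated activating subunit of the CCAAT-binding complex that drives many genes of the chain, stood at 1.68, 1.52, 1.65 and 1.49 on the 4 control arrays and at 1.89, 1.26, 1.37 and 2.07 on the 4 Kir2.1 arrays and did not follow the index. HAP2 and HAP5, its DNA-binding partners, ranged over 0.24 and 0.37, and HAP3, the third of them, had a gap of 0.10. PUF3 (YLL013C) also lay below on the high-index arrays, with a gap of 0.21. The retrograde regulator genes RTG2 and MKS1 ranged over 0.10 and 0.25. ADR1 (YDR216W) and CAT8, activators of glucose-repressed genes, differed by 0.31 (SE 0.16) and 0.20 (SE 0.18). CAT8 lay within the background on every array, so its difference is not interpreted. HXK2, a hexokinase of glucose repression, differed by 0.14 (SE 0.06), and SNF1, the kinase that relieves this repression, by -0.07 (SE 0.06). HAP2, HAP3, HAP4, HAP5, PUF3, CTH1, RTG2, MKS1, SDH6 and SDH8 were named after their values were seen. What part TIS11, HAP1 or the iron genes have in the levels of the members was not tested.

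Outside the cycle proper, the gluconeogenic gene PCK1 (YKR097W) stood at -0.02, -0.22, -0.38 and -0.15 on the 4 control arrays and at 0.15, -0.20, 0.14 and -0.13 on the 4 Kir2.1 arrays and lay above on all 3 high-index arrays. Its group difference was 0.19 (SE 0.11). The peroxisomal isocitrate dehydrogenase gene IDP3, within the background throughout, differed by 0.18 (SE 0.07), ACS1, an acetyl-CoA synthetase gene, by 0.17 (SE 0.08), IDP2, for the cytosolic form of that dehydrogenase, by 0.21 (SE 0.14), MDH2, for cytosolic malate dehydrogenase, by 0.17 (SE 0.14), and ICL1, for isocitrate lyase, by 0.19 (SE 0.15). Over the whole list the Kir2.1 mean was the higher one in 10 of 11 genes, against 58.7% of all genes. Of the 11, however, only 6 lay above the background on all 8 arrays, so part of this count rests on background values. IDP2 lay above the background on 4 arrays and ICL1 on 5. Among the further chain genes it was the higher one in 16 of 24, among them STF2, a factor linked to the ATP synthase inhibitor (0.25, SE 0.14), and COQ9, of ubiquinone synthesis (0.16, SE 0.07). None passed.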

How the data were processed

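RNA of 8 yeast cultures, extracted with hot phenol and labelled with biotin for 3′ expression arrays per the labels' protocols, was read on 8 arrays of 1 colour. The deposited value of a probe set is the authors' standardized score, which on every array averages 0 with unit standard deviation over 10715 probe sets; its normalization, build and tools remain not given in the sources used here. Log2 levels were rebuilt from the deposited scores with the zero put 0.005 standard deviations under the lowest score of the array, a choice that compresses or stretches low values. They were then centred on the array's median over 5449 genes (brightest of 5498 S. cerevisiae probe sets per gene, named through the platform table given with the data). Before centring, the median gene was lower by a difference of -0.13 in the Kir2.1 arrays. Depth does not apply; the 4 arrays per group limit the precision. Background was the 95th percentile of 1746 S. pombe probe sets.

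Kir2.1 minus vector control was fitted with limma 3.58.1 in R 4.3.3 (lmFit, eBayes, two-sided), adjusted by Benjamini-Hochberg over all genes and called under 0.05; the script was tested on simulated data. Members and lists were chosen with earlier results of these data known. Differences with errors were given for the 7 iron- or heme-binding members, the 8 others with the smallest unadjusted p, the 6 further ones with the widest range, and per fixed list the 4 with the smallest p and the 2 with the widest range. Where the text gives none, or gives only ends of a range, the gene lies outside this rule. Alternatives were the scaling, dim genes, probe sets per gene, array weights, the iron uptake index as a covariate, omitted arrays, a replicate block and an unmoderated model. Promoter and protein sequences were not used here.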

Additional observations from a re-analysis of the deposited data

Results flagged for a closer look

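For 73 genes (the 49 members and the other named genes), each group of 4 arrays was searched for an array whose gap to its nearest neighbour took up more than the share of the group's range given by Dixon's 95% critical value for 4 samples. Chance flags about 1 in 20 groups of normally distributed values, and over all 5449 genes 8.15% of groups passed. Among the members 13 of 98 groups passed (13.3%), and among the other 24 genes, which were chosen on these same arrays for a small p or a wide range, 9 of 48 did. Vector control replicate 1 stood low in 7 members: ACO1 (0.91 of the range), KGD1 (0.848), SDH1 (0.964), SDH2 (0.832), QCR2 (0.833), ATP16 (0.956) and ATP20 (0.937). It also stood low in CYC1 (0.901), SDH7 (0.886), PET100 (0.927) and PET117 (0.848), and high in IDH1 (0.867), SHH3 (0.855) and CAT8 (0.865), of which SHH3 and CAT8 lay within the background. Vector control replicate 2 stood low in NDI1 (0.844). Kir2.1 replicate 1 stood low in FUM1 (0.86) and ATP4 (0.902) and high in IDP3 (0.859). Kir2.1 replicate 4 stood high in IDH1 (0.885), LSC2 (0.846) and SNF1 (0.95) and low in CBS2 (0.858).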

How the results depend on the processing

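Limma called 0 members and 0 genes in both directions under 19 of 20 alternatives, among them all 8 fits that left out 1 array, where the median member difference ran from -0.09 to 0.08. The exception was the fit with array weights, with 6 members called higher and 15 lower and 1017 genes higher and 718 lower. Complex V had a median difference of -0.083 without centring and -0.062 with array weights. With all 4 Kir2.1 values above all 4 control values there were 0 members without centring, against 10 of all 5449 genes. There were 3 with centring on the 75th percentile, against 139 genes, and 0 after quantile normalization, against 87. Without centring 2 members lay below, against 661 of all genes. With the zero set at 0.02 array standard deviations, 1 member lay above on the high-index arrays (2.04%, against 16.2% of all genes). FUM1 turned to -0.014 without centring, and QCR2 and CYC1 turned to 0.055 and 0.041 with the 3 high-index arrays left out. The causes were not tested. Of 896 values for the 45 named genes, 44 further changes of sign were in differences within 1 standard error.

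Deviations of same-numbered arrays correlated at 0.81, 0.69, -0.66 and 0.39. Vector control replicate 1 correlated at 0.81 with both Kir2.1 replicates 1 and 3, the other high-index arrays, and at -0.87 with Kir2.1 replicate 2. Whether a replicate number marks a shared culture or day cannot be told from these values. With the replicate block, 0 members and 0 genes were called, the median member difference was 0.0041, and CIT1 kept 0.22 (limma adjusted p = 0.511).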
